A study of Mus musculus with 6 samples.

Results

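The Mest domain on mouse chromosome 6 was described through 6 genes, taken by their symbols: Cpa4, Cep41, Mest, Copg2, Tsga13 and Klf14, in the order in which they lie on the chromosome. Each had 1 probe set that was assigned to it alone, so 6 of the 19937 genes tested belong to the set. The arrays compared mouse embryonic stem (ES) cells that carried a vector for FLAG-tagged mouse CTCFL, in 3 replicates, with ES cells that carried the empty control vector, also in 3 replicates. All 6 cultures descended from clones of the ES cell line 46C, which is male, comes from the strain 129P2/OlaHsd and carries a GFP knock-in at Sox1, and all grew in 10% serum under constant selection with 1 µg/ml puromycin. CTCFL (BORIS) is a paralog of the insulator protein CTCF that normally occurs in male germ cells. The labels call the samples biological replicates of stably transfected cells and do not tell whether they came from separate transfections. The p-values below therefore rest on array-to-array spread, which may be partly technical. The set was chosen on the measured values of this very comparison: Mest had the largest rise of all genes, and the others lie beside it. The values of the 6 genes are therefore given as a description, without a test.

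An imprinted gene is transcribed mainly from the allele inherited from one parent, which is set by DNA methylation laid down in the germ line and kept after fertilisation. Mest, also called Peg1, codes for a protein of the alpha/beta hydrolase fold and is transcribed from the paternal allele, while its CpG-rich promoter is methylated on the maternal allele. It is abundant in embryonic mesoderm. Its neighbour Copg2, a coat protein gene, has a bias to the maternal allele in some mouse tissues, and Klf14, a gene for a zinc finger factor with a single exon, is transcribed from the maternal allele. The array reads the sum of both alleles over all cells of a culture, so in these data fewer cells that express a gene and less RNA per cell cannot be told apart.

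The sequences around the starts of Mest and Copg2 are shown because Mest moved and Copg2, whose annotated span overlaps the end of Mest, was nearly level. They are RefSeq's windows of GRCm38.p6, from 250 bases before to 50 bases after an annotated start. The upstream start of Mest has the window chr6:30733256-30733555 on the plus strand, the downstream start has chr6:30737800-30738099 on the plus strand, and Copg2 has chr6:30896745-30897044 on the minus strand. Capitals mark TGCCGC or its reverse complement GCGGCA, the hexamer that the imprint-keeping factor ZFP57 is known to bind when it is methylated.
Mest upstream start: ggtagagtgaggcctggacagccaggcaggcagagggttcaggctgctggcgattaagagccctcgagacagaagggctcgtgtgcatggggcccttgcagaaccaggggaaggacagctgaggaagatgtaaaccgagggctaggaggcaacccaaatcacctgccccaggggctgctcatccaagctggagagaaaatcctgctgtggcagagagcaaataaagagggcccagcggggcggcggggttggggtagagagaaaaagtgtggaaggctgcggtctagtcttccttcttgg
Mest downstream start: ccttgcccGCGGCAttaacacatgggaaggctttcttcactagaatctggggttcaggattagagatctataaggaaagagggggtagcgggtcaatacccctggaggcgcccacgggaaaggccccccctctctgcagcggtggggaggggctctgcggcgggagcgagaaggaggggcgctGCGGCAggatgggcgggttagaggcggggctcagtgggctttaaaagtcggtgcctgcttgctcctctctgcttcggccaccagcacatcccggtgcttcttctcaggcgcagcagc
Copg2 start: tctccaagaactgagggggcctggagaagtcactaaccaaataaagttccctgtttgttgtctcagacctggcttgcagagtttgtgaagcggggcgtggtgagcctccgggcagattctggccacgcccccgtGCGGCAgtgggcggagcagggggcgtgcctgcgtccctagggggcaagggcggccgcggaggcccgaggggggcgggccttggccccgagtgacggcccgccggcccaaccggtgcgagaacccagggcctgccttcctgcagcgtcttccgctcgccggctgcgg
The downstream Mest window held 2 matches to the hexamer, the upstream Mest window 0 and the Copg2 window 1, and 11.6% of all 32851 windows of this length held at least 1. The window of a further Mest start, displaced by 3 bases from the downstream one, held the same 2 matches. The dinucleotide CG occurred 17 times in the downstream Mest window, 8 times in the upstream one and 25 times in that of Copg2. Over all windows the median was 7 and the 75th percentile 20. Of the other members, the windows of Cep41, Cpa4 and Tsga13 had 19, 3 and 2 CG dinucleotides and 0 hexamers. Both strands were searched in each case. The letters GGNGGCAG, a core of the CTCF motif, were in 12.6% of all windows and in none of those of these 5 genes. The single Mest probe set is annotated to 3 RefSeq mRNAs, and its value does not separate the 2 start regions.

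Over all genes, 2496 rose and 3665 fell in FLAG-CTCFL cells at an adjusted p of 0.05 in limma, the linear model used here, which is 30.9% of the genes tested. Rises made up 40.5% of these calls with the deposited values and 54.4% after quantile normalization. The median log2 signal of an array was 7.92 to 7.99. Across genes, Pearson's r was 0.9969 to 0.9981 among FLAG-CTCFL arrays, 0.9983 to 0.9986 among control arrays and 0.9826 to 0.9849 between them. With 3 arrays a group, small differences are measured with low precision.

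Mest was high in every FLAG-CTCFL culture and near the background level of the array in every control culture. Its log2 signal was 11.79, 11.38 and 11.32 in FLAG-CTCFL replicates 1, 2 and 3, against 7.66, 7.82 and 7.79 in Control Vector replicates 1, 2 and 3. The groups were separated by far more than their own spread. The mean was 11.50 ± 0.25 in FLAG-CTCFL cells and 7.76 ± 0.09 in control cells (SD, n = 3 each), a difference of 3.74 ± 0.10 on the log2 scale (SE from limma), or 13.4-fold. This was rank 1 of 19937 differences. The background level was taken as 7.63, the 95th percentile of the mean signals of 1194 olfactory and vomeronasal receptor genes. The control mean of Mest lay 0.13 above it, so the fold depends on a dim signal in control cells and may understate the difference in transcript.

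**Figure D1:**
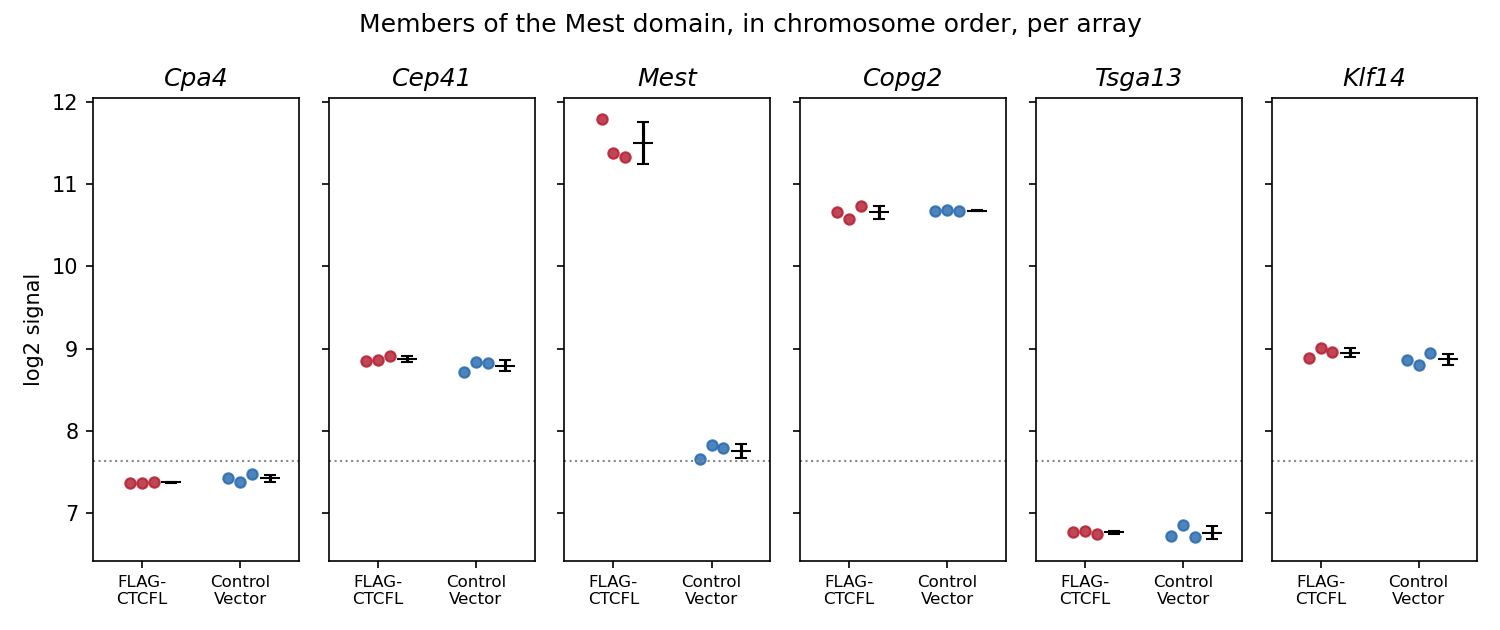
The 6 genes of the Mest domain in chromosome order, with log2 signal per array (points), group mean ± SD (bars, n = 3), FLAG-CTCFL left and Control Vector right in each panel; the dotted line is the background level of 7.63. Mest lies between 11.32 and 11.79 in FLAG-CTCFL arrays and between 7.66 and 7.82 in control arrays, while both groups of each other gene lie close together.

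The FLAG-CTCFL cultures also differed among themselves in Mest. Set against the control mean, the signal was 16.4-fold in replicate 1, 12.3-fold in replicate 2 and 11.8-fold in replicate 3. The SD of 0.25 was larger than that of 99.9% of genes in the FLAG-CTCFL arrays. In the control arrays the SD of Mest lay at the 91.0th percentile. Ctcfl itself, which checks the labels, had 11.33, 11.22 and 11.24 in FLAG-CTCFL replicates 1, 2 and 3, against 7.70, 7.85 and 7.89 in Control Vector replicates 1, 2 and 3. Its SD in the FLAG-CTCFL group was 0.06, so replicate 1 was highest for both genes, by a much wider margin for Mest. Without FLAG-CTCFL replicate 1 the Mest difference was 3.60.

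Since Mest is abundant in mesoderm and in fibroblasts, markers of these and other cells were read beside it. As set out above, 30.9% of all genes passed, 12.5% higher and 18.4% lower. Of all genes above background in either group 41.4% passed. Of 17 measured mesoderm markers 5 were higher and 0 lower (29.4% past), led by Eomes (0.61), a factor of the primitive streak, and Pdgfra (0.54). Their summed linear signal was 4348 to 4630 in FLAG-CTCFL arrays and 4073 to 4161 in control arrays. Mesp1, Meox1 and Tcf21 were below background in both groups. Of 21 fibroblast markers 3 were higher and 2 lower (23.8% past), with sums of 5574 to 5936 in FLAG-CTCFL arrays and 5826 to 6063 in control arrays, and Lum, Dcn, Postn, Prrx1, Fap and Dpt were below background in both groups. Tagln (0.48), Col6a2 (0.22) and Col1a1 (0.16) rose, Mmp2 (-0.55) and Thy1 (-0.48) fell, and the median difference of the list was 0.07. Col1a1 lost the threshold without FLAG-CTCFL replicate 2 or 3 and without Control Vector replicate 1 or 2 (limma adjusted p of 0.0551 to 0.127). Col6a2 lost it without Control Vector replicate 3 (adjusted p = 0.0532). A sum follows its brightest genes, so its direction need not be that of most markers. Of 10 ES cell markers 0 were higher and 6 lower (60% past), with sums of 48579 to 52621 in FLAG-CTCFL arrays and 63697 to 64287 in control arrays, and all 10 were above background. Of 10 trophoblast markers 3 were higher and 1 lower (40% past, sums of 2468 to 2586 in FLAG-CTCFL arrays and 2537 to 2609 in control arrays), with Elf5, Tpbpa and Plac1 below background. Esx1 (0.39), Gata3 (0.33) and Cdx2 (0.30) rose, and Tfap2c (-0.73) fell. Of 12 germ cell markers 3 were higher and 3 lower (50% past, sums of 8315 to 9077 in FLAG-CTCFL arrays and 8563 to 8849 in control arrays), with Nanos2 below background. Stra8 (2.34), Ddx4 (0.28) and Tdrd1 (0.20) rose, and Sycp3 (-1.21), Tex14 (-0.64) and Piwil2 (-0.29) fell. The part of such cells in the Mest signal was not tested.

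Copg2, which codes for a gamma subunit of the COPI coat of Golgi vesicles, was bright and level. It had 10.66, 10.58 and 10.74 in FLAG-CTCFL replicates 1, 2 and 3, against 10.68, 10.69 and 10.67 in Control Vector replicates 1, 2 and 3. The control values fell inside the range of the FLAG-CTCFL values. The difference was -0.02 ± 0.05 (SE). Forcing all arrays to the same quantiles turned it to 0.060, so it has no settled sign.

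Klf14, whose product is a repressor and activator of the Krüppel-like family, had 8.89, 9.01 and 8.96 in FLAG-CTCFL replicates 1, 2 and 3, against 8.86, 8.81 and 8.94 in Control Vector replicates 1, 2 and 3. The groups overlapped, with a difference of 0.08 ± 0.05 (SE). Cep41, a centrosomal protein that is mutated in human Joubert syndrome, had 8.85, 8.86 and 8.91 in FLAG-CTCFL replicates 1, 2 and 3, against 8.72, 8.84 and 8.82 in Control Vector replicates 1, 2 and 3. Its groups did not overlap, but the gap between them was smaller than the range within either group, and the difference was 0.08 ± 0.05 (SE).

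Cpa4, a secreted metallocarboxypeptidase, and Tsga13, a gene named for its expression in testis, lay below the background level in both groups. Cpa4 had 7.37, 7.37 and 7.38 in FLAG-CTCFL replicates 1, 2 and 3, against 7.42, 7.38 and 7.47 in Control Vector replicates 1, 2 and 3. Tsga13 had 6.77, 6.78 and 6.74 in FLAG-CTCFL replicates 1, 2 and 3, against 6.72, 6.86 and 6.71 in Control Vector replicates 1, 2 and 3. The differences were -0.05 ± 0.04 and 0.0020 ± 0.05 (SE). At such signals a change in transcript may not be readable, so these values do not show that both genes were equally expressed. The sign for Tsga13 changed with the array weights and with the array left out.

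In the limma fit over all genes, 1 of the 6 members, Mest, was past an adjusted p of 0.05, where 30.9% of all genes were (12.5% higher and 18.4% lower). The groups did not overlap for 3 of the 6, Mest and Cep41 higher and Cpa4 lower, where they did not for 41.3% of all genes (18.3% higher and 23.0% lower). The set was chosen with this contrast in view, so nothing is read from these counts. None of the other 5 members had an unadjusted p under 0.05 or passed with limma's trend and robust options, and all 5 differed by less than 0.1 on the log2 scale, as did 59.7% of all genes. For the same reason this is a description and no test of those 5, and Cpa4 and Tsga13 lay below background in both groups. After quantile normalization, where 36.4% of all genes passed, Cep41 (0.14) and Klf14 (0.14) passed besides Mest. With array weights, where 46.2% of all genes passed, Cep41 (0.11) did so as well. Mest kept rank 1 under each of the 14 alternative settings, with differences between 3.59 and 3.83.

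**Figure D2:**
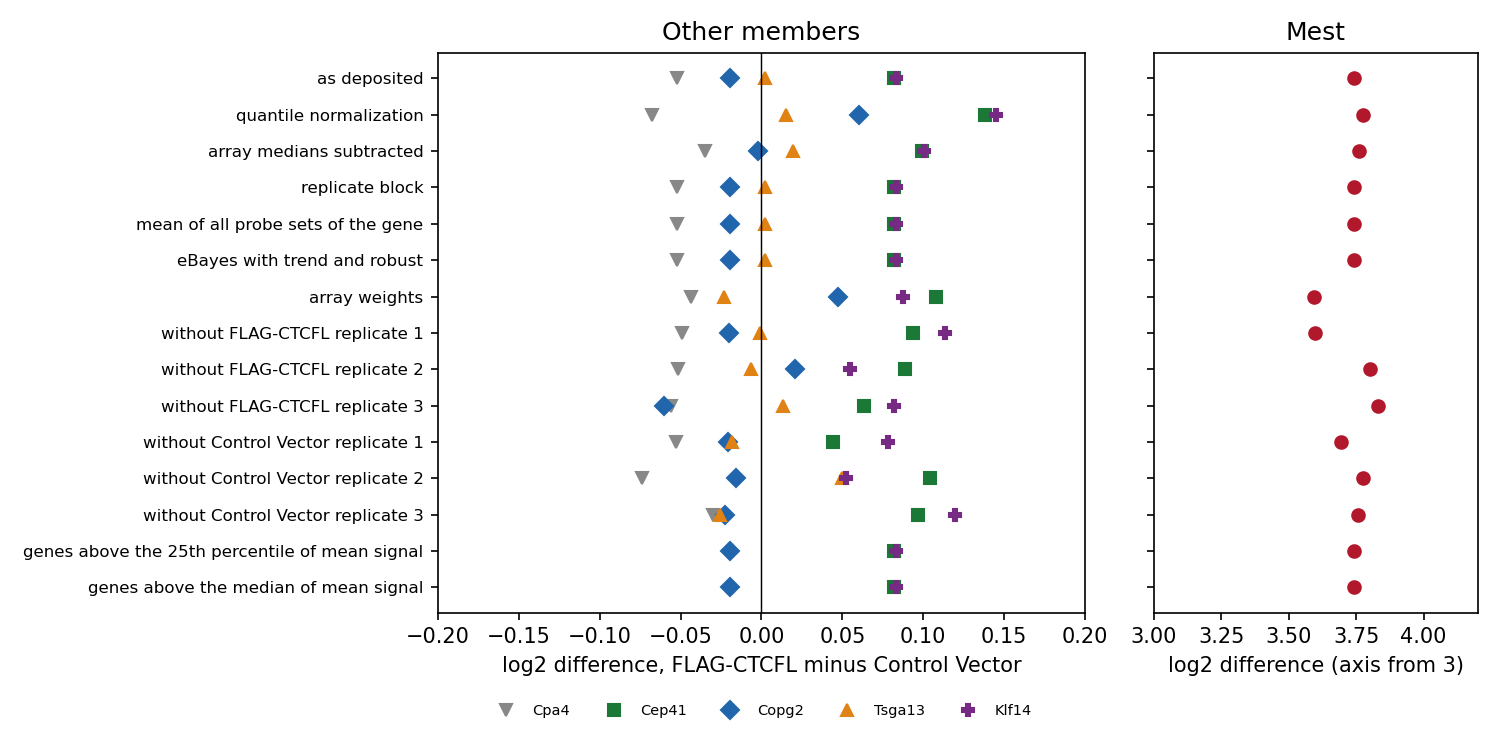
Log2 differences, FLAG-CTCFL minus Control Vector, of the 6 genes with the deposited values and under each alternative setting (rows); the right panel shows Mest on an axis that starts at 3. Mest stays between 3.59 and 3.83, and the other genes stay within 0.15 of 0; Cpa4 and Tsga13 have no value where dim genes are filtered out.

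Of the other measured transcripts between the members, none passed. The microRNA gene Mir335 lies within Mest and is processed from its transcript, so its mature forms are shown with the seed (bases 2 to 8) in capitals, from RefSeq's GRCm38.p6 annotation at chr6:30741314-30741336 and chr6:30741354-30741375 on the plus strand. The forms do not share a seed.
mmu-miR-335-5p: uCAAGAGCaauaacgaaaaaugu
mmu-miR-335-3p: uUUUUCAUuauugcuccugacc
The Mir335 probe set had 7.38, 7.51 and 7.33 in FLAG-CTCFL replicates 1, 2 and 3, against 7.40, 7.32 and 7.39 in Control Vector replicates 1, 2 and 3. The groups overlapped, all values were below the background level, and the difference was 0.04 ± 0.05 (SE; adjusted p = 0.670). Labelling of total RNA for these arrays is not designed for mature microRNAs, so the value is not a measure of miR-335. The digestive carboxypeptidase gene Cpa1 differed by 0.08 ± 0.05 (adjusted p = 0.318) and its relative Cpa5 by -0.05 ± 0.05 (adjusted p = 0.503), both below background in both groups. In all, 0 of these 3 genes passed limma's test, against 30.9% of all genes. Of the 3, 0 had an unadjusted p under 0.05, and 0 passed with a variance trend and robust estimation. With array weights 2 of 3 passed, against 46.2% of all genes. All 3 were below background, where a change in transcript may not be readable. The antisense and intronic transcripts of Copg2 are not analysed here.

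Across the wider neighbourhood genes moved in both directions. Besides the 3 genes between the members, the 15 measured genes before Cpa4 and the 15 after Klf14 were read. Of these 33 genes 4 were higher and 6 lower, 30.3% against the 30.9% of all genes, and their median difference was -0.0073 against 0.0037. The groups did not overlap for 13 of 33 (39.4% against 41.3%). Of the 20 that were above background in either group 10 passed, against 41.4% of all such genes.

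Slc35b4, a transporter of nucleotide sugars into the Golgi, had the largest rise among them. Its log2 signal was 10.22, 10.12 and 10.21 in FLAG-CTCFL replicates 1, 2 and 3, against 9.71, 9.82 and 9.78 in Control Vector replicates 1, 2 and 3, with a difference of 0.41 ± 0.05 (SE; adjusted p = 1.76e-05) and no overlap. Smo, the signal transducer of the Hedgehog pathway, had the largest fall. It had 9.58, 9.80 and 9.87 in FLAG-CTCFL replicates 1, 2 and 3, against 10.28, 10.28 and 10.37 in Control Vector replicates 1, 2 and 3, with a difference of -0.56 ± 0.07 (adjusted p = 2.06e-05). The nuclear envelope gene Tmem209 (-0.29), the ubiquitin-conjugating enzyme gene Ube2h (-0.28) and the nuclear import receptor gene Tnpo3 (-0.20) also fell, and Zc3hc1 (0.20), a nuclear pore basket gene, rose. The other 4 genes past the threshold lay between -0.18 and 0.21. The nearest genes past the threshold on either side of Mest were Tmem209, before Cpa4, and Mkln1, after Klf14. The Mest difference exceeded that of Slc35b4 by 3.33 on the log2 scale. On the whole of chromosome 6 the genes past the threshold were 108 higher and 241 lower of 1101. This was 31.7%, near the 30.9% of all genes, of which 12.5% were higher and 18.4% lower. Only 686 of the 1101 genes were above background in either group, though, against 14464 of all 19937, and 41.4% of all such genes passed.

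**Figure D3:**
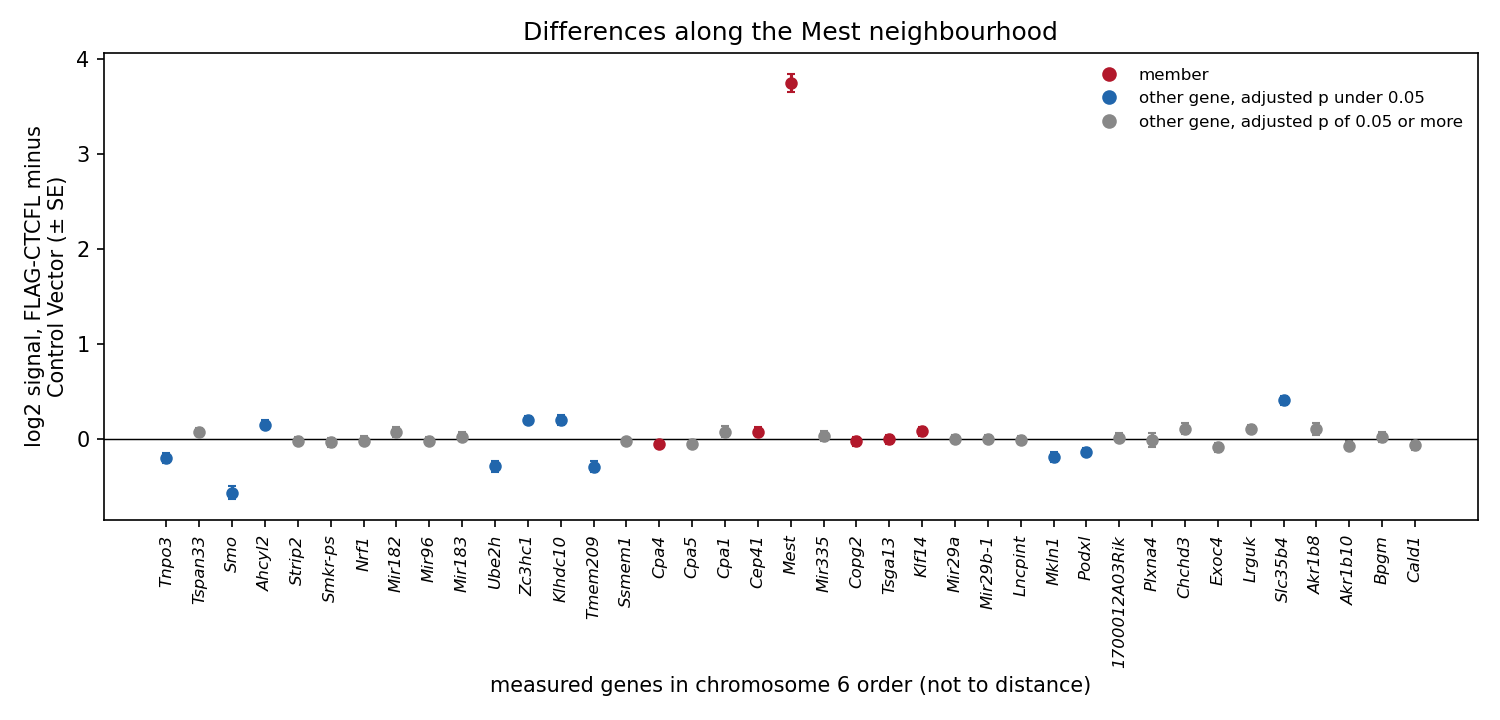
Log2 difference, FLAG-CTCFL minus Control Vector (± SE), for the 39 measured genes around Mest, in chromosome order and not to distance; members are red, other genes past an adjusted p of 0.05 blue and the rest grey. Mest stands at 3.74, and the other 38 genes lie between -0.56 and 0.41.

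The 5 genes whose profile over the 6 arrays was most like that of Mest are given as a description. Because Mest was chosen for its rise, this measure picks other strongly raised genes by construction. Likeness was the root mean square distance between log2 signals, each taken minus the control mean. Ctcfl, the gene that the vector carries, was nearest at 0.24. Stra8, a gene of meiotic entry, followed at 1.03, Rhox13, an X-linked homeobox gene, at 1.10, Ct55 at 1.11 and the germ line Polycomb gene Scml2 at 1.24. None of them shared the order of Mest within FLAG-CTCFL cells, which was lowest in replicate 3. Ctcfl, Rhox13, Ct55 and Scml2 were lowest in replicate 2. Stra8 had 10.09, 10.28 and 10.55 in FLAG-CTCFL replicates 1, 2 and 3, lowest where Mest was highest.

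Other genes of the network of imprinted genes to which Mest belongs also differed, in both directions. This network was drawn up in mouse around the factor PLAGL1 and links growth-related imprinted genes. Among the 13 with a value, 8 rose, Mest included, and 2 fell, or 76.9% past against 30.9% of all genes (12.5% higher and 18.4% lower). The median difference was 0.37 against 0.0037 over all genes. Of the 13 genes 12 were above background in either group, and 41.4% of all such genes passed. Without Mest 7 of 12 were higher and 2 lower (75% past), with a median of 0.30. Plagl1 rose by 0.56 ± 0.05 (SE; adjusted p = 2.07e-06), and so did Dlk1, a membrane ligand related to Notch ligands, by 0.39 ± 0.06 (adjusted p = 0.000173). Meg3 (1.06) and Igf2 (0.65) rose too, and Grb10 fell by 2.34 on the log2 scale. Many imprinted genes were known to differ in these data when the list was drawn up, so it gives no independent evidence.

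Genes that keep or set imprints moved in both directions. Of the 24 with a value, 9 fell and 3 rose, 1 of them Ctcfl itself, or 50% past against 30.9% of all genes (18.4% lower and 12.5% higher). The vector carries Ctcfl, so its rise was set by the design, and the 50% includes it. The median was -0.11 against 0.0037 over all genes. Of the 24 genes 23 were above background in either group, and 41.4% of all such genes passed. Zfp57, the zinc finger gene whose product binds the hexamer shown above, had 12.77, 12.57 and 12.66 in FLAG-CTCFL replicates 1, 2 and 3, against 12.67, 12.61 and 12.66 in Control Vector replicates 1, 2 and 3. The groups overlapped, with a difference of 0.02 ± 0.05 (adjusted p = 0.841). It was -0.033 without FLAG-CTCFL replicate 1. Its partner Trim28 differed by 0.13 ± 0.05 (adjusted p = 0.0775), and passed after quantile normalization (0.16, adjusted p = 0.0141) and without FLAG-CTCFL replicate 2 (adjusted p = 0.0364). Both were named for the hexamer, after their values were seen. The de novo methyltransferase Dnmt3a fell by 0.53 ± 0.05 (adjusted p = 3.75e-06) and the chromatin remodeller Atrx by 0.59 ± 0.07 (adjusted p = 1.92e-05). Uhrf1 (-0.21), which brings the maintenance methyltransferase to replicated DNA, and the dioxygenase Tet1 (-0.24) fell, and Dnmt3l (0.40), a cofactor of de novo methylation, rose.

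**Figure D4:**
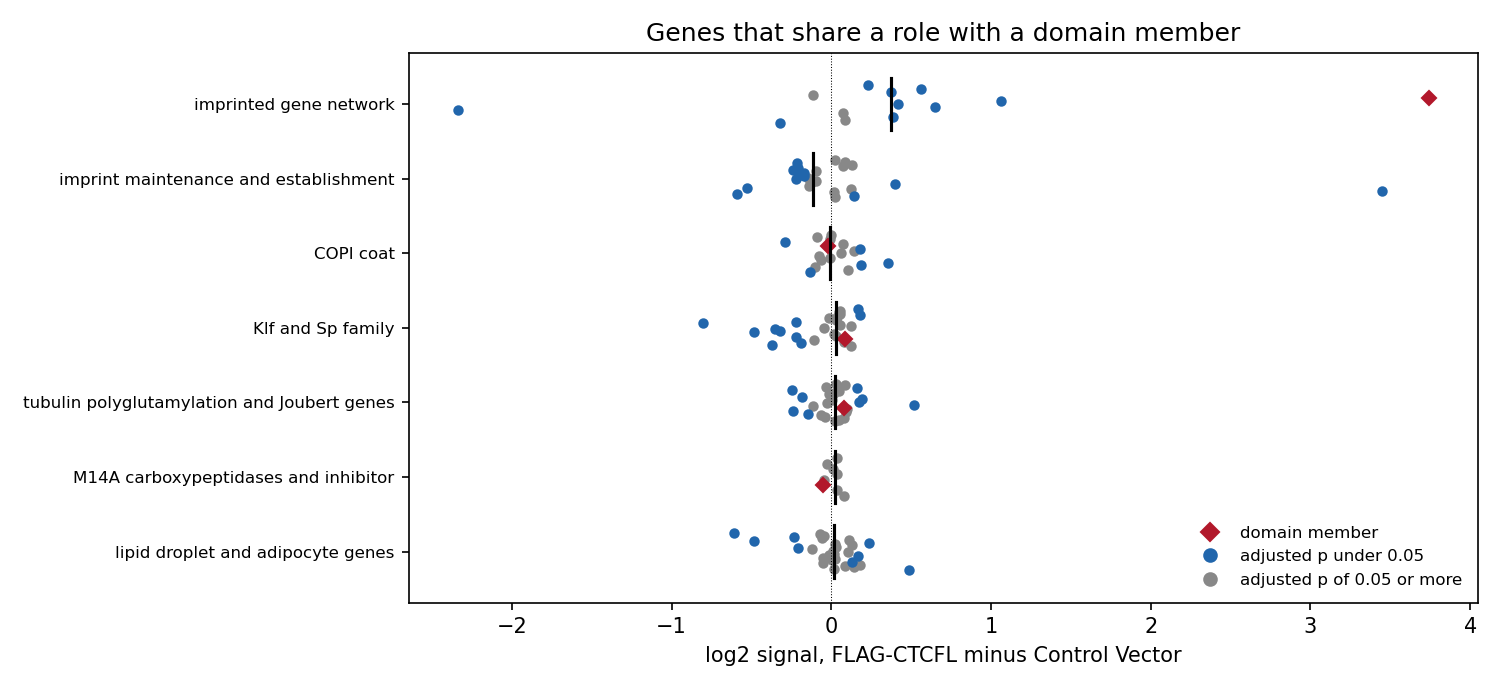
Log2 differences, FLAG-CTCFL minus Control Vector, of single genes (points) in 7 gene lists tied to the roles of the domain's members; black bars are list medians, diamonds the domain's members. Mest stands far to the right of its list at 3.74, while Copg2, Klf14, Cep41 and Cpa4 lie within 0.1 of 0 in theirs.

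Of the COPI coat and its regulators, the machinery of Copg2, 3 of 17 rose and 2 fell, with a median of -0.0061. The share past the threshold, 29.4%, was near the 30.9% of all genes. All 17 were above background, though, and of all genes above background in either group 41.4% passed. Copg1, the paralog that can take the place of Copg2 in the coat, had 11.04, 10.93 and 10.94 in FLAG-CTCFL replicates 1, 2 and 3, against 10.77, 10.85 and 10.74 in Control Vector replicates 1, 2 and 3, a rise of 0.18 ± 0.05 (SE; adjusted p = 0.0107). Without Control Vector replicate 3 its adjusted p was 0.0596, and 3 genes of the list passed, where 25.8% of all genes did. Arfgap2, which promotes GTP hydrolysis by Arf1 on the coat, rose by 0.35 ± 0.06 (adjusted p = 0.000233), and Copz2, a zeta subunit, fell by 0.29 ± 0.05 (adjusted p = 0.000270). The other fall, Arcn1 (-0.14, adjusted p = 0.0445), was less settled. It lost the threshold in several settings, such as quantile normalization (adjusted p = 0.373) and limma's trend and robust options (adjusted p = 0.0862). Forcing equal quantiles on the arrays let 8 of the 17 genes pass, as array weights did. Over all genes these settings let 36.4% and 46.2% pass.

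In the Klf and Sp family of zinc finger factors, to which Klf14 belongs, 2 of 25 genes were higher and 8 lower, with a median of 0.03. This was 40% past against 30.9% of all genes, of which 12.5% were higher and 18.4% lower. Of the 25 genes 22 were above background in either group, and 41.4% of all such genes passed. Klf8 fell by 0.81 ± 0.07 (SE; adjusted p = 1.68e-06). Klf2 (-0.48) and Klf4 (-0.35), factors of naive pluripotency, fell, as did Klf10 (-0.37), Klf3 (-0.32) and Klf15 (-0.22). Klf16, a close paralog of Klf14, had 10.12, 10.05 and 10.09 in FLAG-CTCFL replicates 1, 2 and 3, against 10.04, 10.08 and 10.05 in Control Vector replicates 1, 2 and 3. These groups overlapped, with a difference of 0.03 ± 0.04 (adjusted p = 0.687), and it passed after quantile normalization (0.11, adjusted p = 0.0373).

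Among genes of tubulin polyglutamylation, a process that CEP41 supports in cilia, and of Joubert syndrome, 4 of 26 were higher and 4 lower, with a median of 0.02. The share past the threshold, 30.8%, was near the 30.9% of all genes. Of the 26 genes 21 were above background in either group, and 41.4% of all such genes passed. Inpp5e, a phosphatase of the ciliary membrane, rose by 0.52 ± 0.05 (SE; adjusted p = 2.85e-06), and the polyglutamylase Ttll4 fell by 0.25 ± 0.06 (adjusted p = 0.00500). Cc2d2a (-0.24) fell and Tctn2 (0.19) rose, both of the ciliary transition zone. Without Control Vector replicate 1, 5 genes of this list passed, where 26.0% of all genes did. Of 8 measured carboxypeptidases and inhibitors, the family of Cpa4, 0 passed limma's test (against 30.9% of all genes), 0 had an unadjusted p under 0.05, 0 passed with a variance trend and robust estimation, and all but Lxn, an inhibitor of these enzymes, were below background in both groups. With array weights 2 of 8 passed, against 46.2% of all genes.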

How the data were processed

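Per the labels' protocols, 200 ng of total RNA from each of 6 cultures was labelled with a kit for whole transcripts; the array was Affymetrix's Mouse Gene 1.0 ST, with 1 colour. The deposited values are log2 signals, 1 per probe set and array, as read from their range of 5.73 to 14.56. How the authors corrected, summarised and scaled them, and with what software: not given in the sources used here. Of 34760 probe sets 21640 had 1 gene symbol, 1321 several and 11799 none. Symbols were updated by Entrez ID through RefSeq's GRCm38.p6 gene table (21553 matched), which also gave gene order; the arrays' own build is not stated. The brightest probe set of each gene was kept.

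Groups were compared over all 19937 genes with limma 3.58.1 in R 4.3.3 (group as the only term, two-sided, Benjamini-Hochberg, threshold 0.05). The code was also run on simulated data with independent noise and few changed genes. That run does not test how the procedure behaves on arrays like these. Log2 differences are FLAG-CTCFL minus Control Vector. The 6 genes, the gene lists and the tests were chosen with earlier results of these data known. Genes named besides the members were, per list and in the neighbourhood, up to 6 past the threshold with the smallest p, Ctcfl, Copg1, Klf16 and the 5 genes most like Mest. Mir335, Cpa1, Cpa5, Zfp57, Trim28, Mkln1, Lxn and markers below background were named outside this rule, after their values were seen. Mature miRNA and promoter sequences came from RefSeq; 5 of the 6 members had a promoter window. Alternatives were 2 scalings, a replicate block, 2 filters on dim genes (25th and 50th percentile), means over a gene's probe sets, limma's trend and robust options, array weights, and each array left out. Figures used Python 3.11.15 and matplotlib 3.10.9.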

Additional observations from a re-analysis of the deposited data

How the results depend on the processing

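The Mest difference kept its sign and rank in all 14 alternatives, and without single arrays it was 3.60 to 3.83. Quantile normalization gave 3943 higher genes, 3 members past the threshold, 8 COPI genes, and differences of 0.14 for Cep41 and 0.060 for Copg2. Array weights, which gave FLAG-CTCFL replicate 3 a weight of 5.77 and FLAG-CTCFL replicates 1 and 2 weights of 0.41 and 0.32, gave 4195 higher genes, 2 members, 8 COPI genes, 13 genes of tubulin polyglutamylation and Joubert syndrome, 19 of imprint keeping, 17 of lipid droplets, 2 carboxypeptidases, 2 of the 3 transcripts between members, and 0.047 for Copg2; the cause was not tested beyond these weights. Of all genes, 36.4% passed after quantile normalization and 46.2% with array weights. Not every list count rose with that share. After quantile normalization 8 genes of the tubulin and Joubert list, 10 of the imprinted gene network and 10 neighbours passed, as with the deposited values. With 1 array left out, 24.8% to 32.2% of all genes passed. Then 3 to 5 COPI genes and 5 to 9 of the tubulin and Joubert list passed, and 7 to 11 of the 33 neighbours. Zfp57 was -0.033 to 0.071 with 1 array left out, below 0 without FLAG-CTCFL replicate 1. With the replicate number as a block 1 member and 9 neighbours passed, and 2398 genes were higher and 3581 lower. Deviations from the group means had r of 0.13, -0.20 and -0.02 between same-numbered arrays, for numbers 1, 2 and 3. Between differently numbered arrays r was -0.35 to 0.34, so no pairing by number was seen. With 3 arrays a group, these values cannot tell whether cultures shared a batch. Alternatives gave 996 values of 72 other genes, those picked by the naming rule together with Zfp57 and Trim28. Some of the 72 are not named in the text. The 6 members and the other genes named outside the rule are not among them. Of these 996 values 972 kept direction and side of the threshold, 20 lost the threshold, 3 gained it and 1 turned. Dim signal limits what Cpa4, Tsga13 and Mir335 can show, and no value tells which allele or which start of Mest was read.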

Other observations

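MEST is known in mouse for its part in the growth of fat cells, so genes of lipid droplets and adipocytes were read as well. Of 28 measured genes 4 were higher and 4 lower, 28.6% against 30.9% of all genes, with a median difference of 0.02. Of the 28 genes 26 were above background in either group, and 41.4% of all such genes passed. Abhd5, the activator of the triglyceride lipase, rose by 0.49 ± 0.05 (SE; limma adjusted p = 3.39e-06) and Plin2, a droplet coat protein, by 0.23 ± 0.04 (adjusted p = 0.000986). The droplet protein Plin3 fell by 0.48 ± 0.05 (adjusted p = 3.98e-06), Sfrp5, a secreted Wnt antagonist that goes with Mest in mouse fat, by 0.61 ± 0.07 (adjusted p = 1.97e-05), the lipase Pnpla2 by 0.23 ± 0.05 (adjusted p = 0.00180) and the phosphatidate phosphatase Lpin1 by 0.21 ± 0.04 (adjusted p = 0.00160).

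A second probe set that names Cep41 together with Ubap1 was not used for either gene. It had 10.58, 10.42 and 10.51 in FLAG-CTCFL replicates 1, 2 and 3, against 10.58, 10.60 and 10.52 in Control Vector replicates 1, 2 and 3, a difference of -0.06.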
